A study of Mytilus galloprovincialis with 16 samples.

Results

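Collagens and byssus proteins were followed in the mantle of female mussels (Mytilus galloprovincialis) through 4 probes of the 1920 on a cDNA microarray. The probes were AJ625457, described as type alpha 1 with the term collagen and the C-terminal domain of fibrillar collagens; AJ626467, a collagen alpha-1 chain precursor with the collagen triple helix repeat; AJ626112, foot protein-6 variant-1, which carries an EGF-like domain; and AJ625760, which matches the mRNA of precollagen-D. They were chosen by their stage changes: the study lists them among the genes whose log2 ratios differed between stages on the same 16 arrays. Those changes are therefore given below as a description, and no test of them counts as support. Each was tied to a clone on the array by its 3 changes against stage 1, with a tolerance of 0.005 on the log2 scale. The largest difference over the 4 was 0.0018, and no other clone came closer than 0.061.

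Collagens are proteins of the extracellular matrix whose chains wind into a triple helix. Fibrillar collagens form the fibres that give connective tissue its strength. The byssus is the bundle of threads by which a mussel holds on to rock, and it is made by glands of the foot, not by the mantle. Its threads are built of precollagens, which join a collagen core to flanking segments: silk-like ones in precollagen-D, the form of the distal thread, and elastin-like ones in precollagen-P, the form of the proximal thread. Foot protein-6 belongs to the adhesive plaque at the end of the thread, where its thiol groups are known to keep the DOPA side chains of other plaque proteins in their reduced, adhesive form. The mantle of this bivalve lines the shell and houses the gonad.

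RNA came from the mantle of single females of a natural population in the lagoon of Bizerta, Tunisia, with no treatment and no defined genotype. Stage 1 of gonadal development was sampled in November, and stage 2 (development), stage 3 (ripe) and stage 4 (spawning) in the January, February and March that followed, so that stage and month cannot be told apart. On each array 2 stages were hybridised together, 1 in Cy5 and 1 in Cy3, and 4 arrays each compared stage 2 with 1 (S2vsS1), stage 3 with 2 (S3vsS2), stage 4 with 3 (S4vsS3) and stage 4 with 1 (S4vsS1), with the dyes exchanged on 2 of each 4. Stage 3 never met stage 1 on an array. The animals behind single arrays are not labelled, an animal may appear more than once, and the spread between arrays may be partly technical. One array, replicate 4 of S3vsS2, carries a source name of stage 4 against a title and month of stage 3, and was used as stage 3. On replicate 3 of S3vsS2 the source name and the date field of the stage 2 channel differ by 1 year. All values are log2 ratios of the later over the earlier stage, averaged over the 2 spots of a probe.

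Calls were made with limma, at a Benjamini-Hochberg adjusted p under 0.05 over all 1920 probes together with log odds B above 0. By this rule 6.51% of the probes were called in S2vsS1, 14.8% in S3vsS2, 5.26% in S4vsS3 and 7.5% in S4vsS1. The medians of all probes lay between -0.091 and 0.030 in the 4 comparisons. Over the 32 channels, 44.5% to 92.4% of probe spots exceeded the 95th percentile of empty spots, and the number of arrays limits the precision.

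At the step from development to the ripe stage both collagen chains and foot protein-6 were higher, by 2.73 to 3.86 times, and precollagen-D was lower, by 1.69 times. From the ripe stage to spawning the 3 that had been higher were at about -0.6 on the log2 scale, and precollagen-D stood at 0.012. In the direct comparison of spawning with the early stage precollagen-D was lower by 2.72 times, while the other 3 lay within 0.32 of 0. In S3vsS2, 3 members were called higher, where 8.39% of all probes were, and 1 was called lower, where 6.41% were. In S2vsS1, S4vsS3 and S4vsS1 there were 1, 2 and 1 members called lower, where 4.64%, 2.29% and 4.69% of all probes were, and none called higher, where 1.88%, 2.97% and 2.81% were. Members with all 4 arrays on one side of 0 numbered 1 in S2vsS1, 4 in S3vsS2, 3 in S4vsS3 and 4 in S4vsS1, where 38.4%, 47.2%, 31.8% and 36.2% of all probes did so. These counts follow from how the members were chosen. The calls of single members below do so too, and a call that holds in other settings or without an array is no independent support. In bulk mantle, more cells of a type and more RNA in each cell cannot be told apart.

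**Figure D1:**
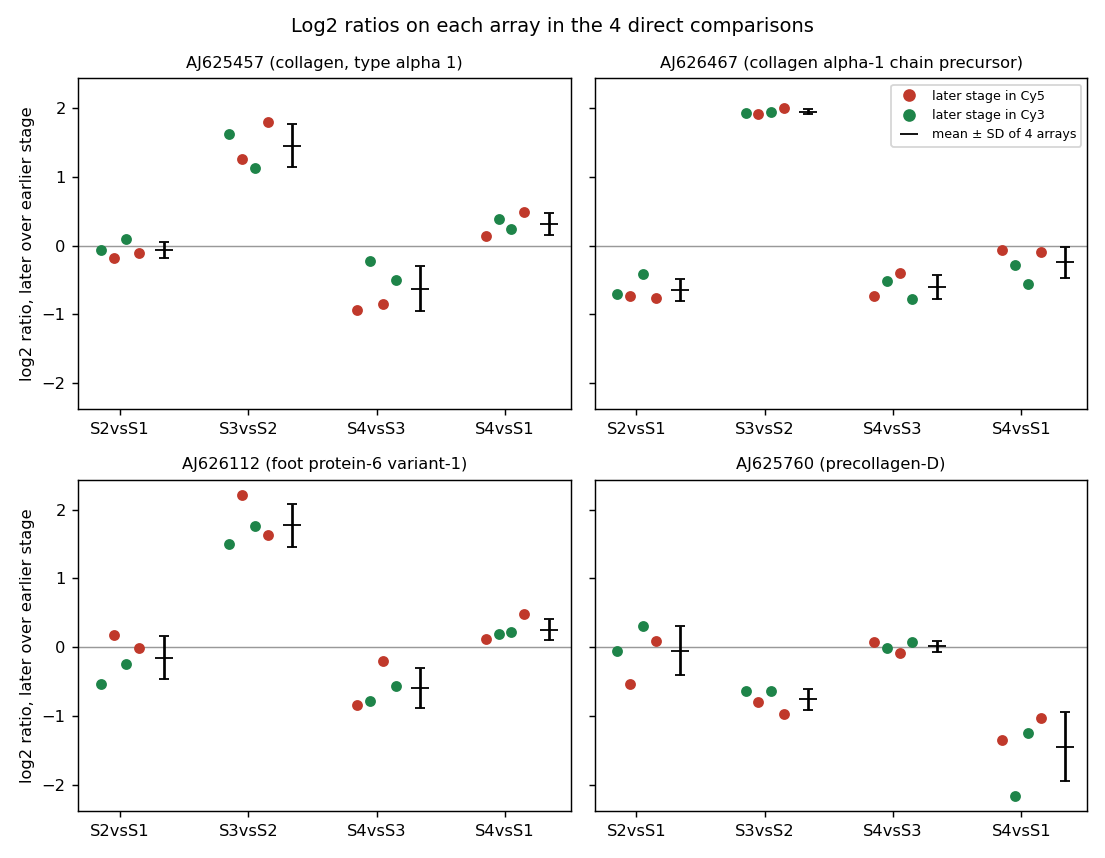
Log2 ratio of the later over the earlier stage on each of the 16 arrays for the 4 probes. Points are arrays, coloured by the dye that carried the later stage, and bars give the mean ± SD of 4 arrays. In S3vsS2 all arrays of both collagens and of foot protein-6 lie above 1, and all arrays of precollagen-D lie below 0.

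The fibrillar collagen AJ625457 did not move in a common direction between stage 1 and stage 2. Its ratios on the 4 arrays of S2vsS1 were -0.070, -0.18, 0.098 and -0.11, with a mean of -0.066 ± 0.12 (SD, n = 4). In S3vsS2 they were 1.62, 1.26, 1.13 and 1.80. The mean was 1.45 ± 0.31 (SD, n = 4), or 2.73-fold, and even the lowest array stood at more than the doubling of the level that a log2 ratio of 1 stands for. In S4vsS3 the ratios were -0.94, -0.23, -0.84 and -0.51, with a mean of -0.63 ± 0.33 (SD, n = 4). All 4 were below 0, and the 2 arrays with stage 4 in Cy5 were the lowest. In S4vsS1 they were 0.13, 0.39, 0.24 and 0.49, with a mean of 0.31 ± 0.16 (SD, n = 4). All arrays were above 0, but the probe was not called. With median centring of each array as the only normalization, S3vsS2 was 0.88 and no longer called, S4vsS3 was -0.051 and no longer called, S2vsS1 was 0.52, and S4vsS1 was 1.30 and called higher. The call of S4vsS3 was also lost with plain background subtraction (-0.76) and without replicate 1, 3 or 4 of that comparison (-0.53, -0.56 and -0.67).

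The second collagen, AJ626467, differed from the first in being lower at stage 2 than at stage 1. Its ratios in S2vsS1 were -0.70, -0.73, -0.42 and -0.76, all below 0, with a mean of -0.65 ± 0.16 (SD, n = 4), which was called. The step that followed was the largest and the most even of the 4 members. In S3vsS2 the arrays gave 1.93, 1.92, 1.95 and 2.00, with a mean of 1.95 ± 0.038 (SD, n = 4), or 3.86-fold. The 4 values lay within 0.1 of each other, over both dye orientations. In S4vsS3 they were -0.73, -0.51, -0.40 and -0.77, with a mean of -0.60 ± 0.18 (SD, n = 4), which was called. In S4vsS1 they were -0.060, -0.29, -0.55 and -0.089, with a mean of -0.25 ± 0.23 (SD, n = 4). All 4 were on the lower side, 2 of them close to 0, and the probe was not called. S3vsS2 was called in all 12 other settings and without each of the 16 arrays, at 1.45 to 2.14 over the settings. With median centring alone S2vsS1 was -0.27 and S4vsS3 was -0.023, neither of them called, and S4vsS1 stood at 0.69 on the other side of 0.

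Foot protein-6 (AJ626112), the plaque protein, was on the same side of 0 as the fibrillar collagen AJ625457 in the mean of every comparison. Its ratios in S2vsS1 were -0.54, 0.18, -0.24 and -0.0065, with a mean of -0.15 ± 0.31 (SD, n = 4), so that the arrays fell on both sides of 0. In S3vsS2 they were 1.49, 2.21, 1.76 and 1.63, with a mean of 1.77 ± 0.31 (SD, n = 4), or 3.42-fold. Every array was well above 0, and the call held in all 12 other settings and without each of the 16 arrays. In S4vsS3 they were -0.84, -0.79, -0.20 and -0.56, with a mean of -0.60 ± 0.29 (SD, n = 4). All were below 0, with a mean like those of both collagens, yet the probe missed the call. It was called with scale normalization between arrays (-0.83), with array weights (-0.65), with the spots kept separate, with a dye term and with the adjusted p alone. It was also called without replicate 1 of S2vsS1, replicate 2 of S3vsS2 or replicate 3 of S4vsS3 (-0.73 in the last). In S4vsS1 the arrays gave 0.12, 0.20, 0.22 and 0.48, with a mean of 0.25 ± 0.16 (SD, n = 4). All were slightly above 0, but the 2 spots lay on opposite sides of 0 on replicate 1 (0.41 and -0.17) and on replicate 2 (-0.29 and 0.68). The probe was not called, and without background correction the mean was -0.056.

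Precollagen-D (AJ625760), the distal thread collagen, ran the other way. Its ratios in S2vsS1 were -0.050, -0.53, 0.30 and 0.091, with a mean of -0.048 ± 0.36 (SD, n = 4), on both sides of 0. In S3vsS2 they were -0.63, -0.79, -0.64 and -0.97, with a mean of -0.76 ± 0.16 (SD, n = 4). All 4 were below 0, and the earlier stage was the higher by 1.69 times. In S4vsS3 they were 0.071, -0.0082, -0.085 and 0.070, with a mean of 0.012 ± 0.074 (SD, n = 4), the smallest mean and the second smallest spread among the 16 sets of arrays. In S4vsS1 they were -1.34, -2.16, -1.25 and -1.03, with a mean of -1.44 ± 0.50 (SD, n = 4), or 2.72 times lower at spawning. Replicate 2 was the lowest, and without it the mean was -1.21 and still called. The call of S4vsS1 held without each of the 16 arrays and in 11 of 12 other settings. It was lost with median centring alone (-0.78), and the value was -0.77, still called, without background correction. The call of S3vsS2 was less stable. It was lost without background correction (-0.55), with plain subtraction (-0.93), with print-tip loess (-0.80), with scale normalization (-0.65) and with a dye term, and it was kept with median centring at -1.27. Of the 16 arrays, it was kept only when the one left out was replicate 2 or 3 of S2vsS1 or replicate 2 or 4 of S4vsS1.

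The raw signal showed where these ratios rest on little light. Both spots exceeded the 95th percentile of empty spots in the same channel in 32 of 32 channels for both collagens, in 31 for foot protein-6 and in 30 for precollagen-D, and no spot was saturated. The 1 exception of foot protein-6 was the stage 1 channel of replicate 1 of S4vsS1, where its signal was 1.06 times that level. Its stage 1 channels on replicates 2, 3 and 4 of that comparison were at 1.64, 4.32 and 2.10 times that level. In the stage 1 channel of replicate 1 of S4vsS1, AJ625457 was at 1.83 and AJ626467 at 1.47 times that level. Both exceptions of precollagen-D were on a single array, replicate 1 of S2vsS1, in both its stage 1 and its stage 2 channel.

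On that array the background-subtracted intensity of precollagen-D was 18.5 for stage 1 and 12.5 for stage 2, or 1.03 and 1.25 times the level of the empty spots. In the other 3 stage 1 channels of S2vsS1 it was 248 to 339, and in the other 3 stage 2 channels 357.5 to 1100.5. The spots of the collagen AJ625457 on the same array stood at 25.6 and 40.1 times that level. The array's ratio of -0.050 is thus a ratio of signals near background, and it says little about the relation of the 2 stages. Without this array the S2vsS1 mean of precollagen-D was -0.047, and without replicate 2 it was 0.11. Which animals were on this array is not given, and a cause of the low signal was not tested.

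**Figure D2:**
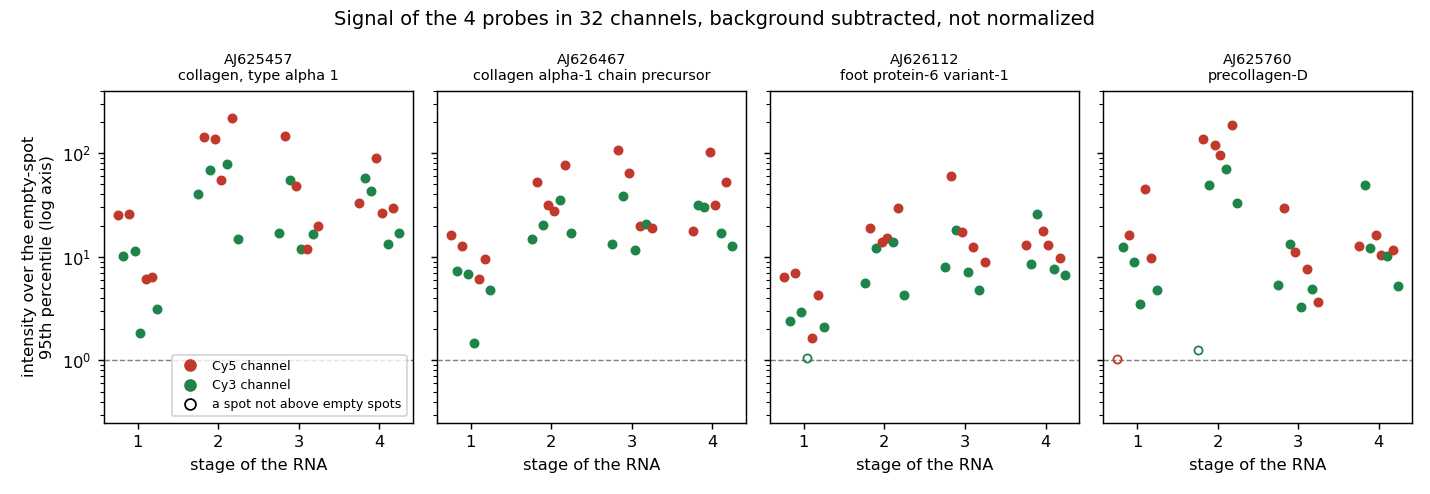
Background-subtracted intensity of each probe, divided by the 95th percentile of empty spots in the same channel (log axis), in the 8 channels of each stage, coloured by dye. Open points mark channels in which a spot was not above the empty spots: 1 for foot protein-6 and 2 for precollagen-D, both of the latter on replicate 1 of S2vsS1. The values are not normalized, and differences between stages include the strength of the channel.

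Across the other arrays the signal of precollagen-D was uneven too. At stage 3 it lay between 44 and 590 over 8 channels, with the 4 channels of S3vsS2 at 166.5 to 590 and the 4 of S4vsS3 at 44 to 107. At stage 4 it lay between 61.5 and 278. The other members were uneven at stage 3 as well, with AJ625457 at 144 to 2934.5, AJ626467 at 227.5 to 2170 and foot protein-6 at 104.5 to 1214. These intensities were not normalized and share the strength of each array's labelling. On replicate 2 of S4vsS1, the array with the lowest ratio, the stage 1 intensity was 1102.5 as the mean of 2 spots, of which the dimmer had 387.

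Duplicate spots differed most for precollagen-D in the median. The largest single difference of a member was 0.97, for foot protein-6 on replicate 2 of S4vsS1. The median difference between the 2 spots of a probe over 16 arrays was 0.087 for AJ625457, 0.099 for AJ626467, 0.19 for foot protein-6 and 0.34 for precollagen-D, where it was 0.15 over all probes. Spot by spot, S3vsS2 of precollagen-D was -0.80 ± 0.11 and -0.72 ± 0.37 (SD, n = 4 arrays each), and S4vsS1 was -1.46 ± 0.68 and -1.43 ± 0.38. Every spot on every array of these 2 comparisons was below 0. For both collagens and foot protein-6, each of the 2 spots was above 0 on all 4 arrays of S3vsS2 and below 0 on all 4 arrays of S4vsS3.

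In a loop design the change from stage 1 to stage 4 is measured by 2 routes, directly and as the sum of the 3 steps, and their difference does not enter the stage changes that chose the members. It is, however, part of the residual spread in a fit of the stages alone, on which the B of the study also rests, so the tests of it are not wholly free of the choice. For AJ626467 the steps summed to 0.69 and the direct arrays gave -0.25, a mismatch of 0.94 (SE 0.19, adjusted p = 0.0036 from limma over all probes). For foot protein-6 the sum was 1.02 against 0.25 direct, a mismatch of 0.77 (SE 0.27, adjusted p = 0.0753). For precollagen-D it was -0.80 against -1.44, a mismatch of 0.65 (SE 0.31, adjusted p = 0.19), and for AJ625457 it was 0.75 against 0.31, a mismatch of 0.44 (SE 0.25, adjusted p = 0.288). All 4 mismatches were above 0, but how many of all probes lay above 0 was not counted. Of all probes 13.5% passed the same threshold (7.76% above 0 and 5.78% below 0), and the root mean square mismatch was 0.796 where the spread between arrays gives 0.383.

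The routes also set what can be said of stage 3 against stage 1, for which no array exists. Through stage 2 the change was 1.39 for AJ625457, 1.30 for AJ626467, 1.62 for foot protein-6 and -0.81 for precollagen-D. Through stage 4 it was 0.94, 0.36, 0.85 and -1.46 in the same order. The direction was the same by both routes for each member, and the log2 size differed most for AJ626467, at 1.30 and 0.36. The fit that combines both routes gave 1.16 (SE 0.13), 0.83 (SE 0.15), 1.24 (SE 0.16) and -1.13 (SE 0.17), and these SEs do not show how far the routes differ. The same fit put stage 4 against stage 1 at 0.42, -0.012, 0.45 and -1.28. The mismatch of AJ626467 did not pass the threshold with plain subtraction (0.72, adjusted p = 0.216 from limma), with scale normalization (0.34, adjusted p = 0.473) or with median centring alone (0.46, adjusted p = 0.667). It passed in the other 24 of the 27 alternatives. That of AJ625457 passed without background correction (0.46, adjusted p = 0.0342 from limma), that of precollagen-D with array weights (0.82, adjusted p = 0.0492), and that of foot protein-6 with a dye term (0.77, adjusted p = 0.0457) and without replicate 1 of S2vsS1 (0.90, adjusted p = 0.0395).

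**Figure D3:**
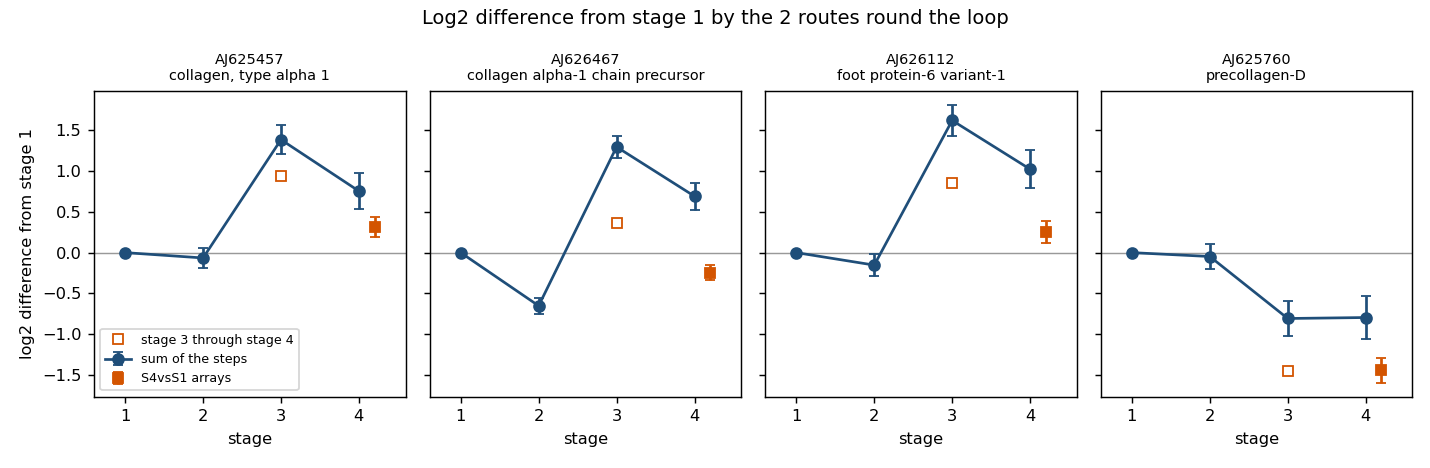
Log2 difference from stage 1 for the 4 probes by both routes round the loop. Blue points sum the steps S2vsS1, S3vsS2 and S4vsS3, the filled orange square is the direct S4vsS1 comparison, the open square is stage 3 reached back from it through S4vsS3, and bars are SEs of the fit, combined as independent errors for sums. For AJ626467 the routes end at 0.69 and -0.25.

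The dye offset, the part of a ratio that stays with Cy5 whatever stage it carries, did not enter the stage changes either, with the same limit. It was -0.067 for AJ625457, 0.033 for AJ626467, 0.13 for foot protein-6 and -0.013 for precollagen-D, with adjusted p = 0.589, 0.755, 0.301 and 0.957 from limma. None passed the threshold, where 1.15% of all probes did. With median centring alone the offsets of AJ625457 and precollagen-D turned to 0.32 and 0.26 (adjusted p = 0.0039 and 0.0169 from limma), and those of the other 2 passed as well.

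The members varied little together once the comparison means were taken away. Over the 16 arrays the deviations of AJ625457 and AJ626467 correlated with r = 0.20 (rho = 0.21) and those of AJ625457 and foot protein-6 with r = -0.31 (rho = -0.34), the highest and the lowest of the 6 pairs. These are descriptions, from arrays that share animals to an unknown extent. The ratios themselves, which chose the members, correlated with r = 0.90 to 0.93 among both collagens and foot protein-6, and with r = -0.46 to -0.29 between these and precollagen-D.

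Identifiers are known only for probes that the study lists as changed. Among the 353 other such probes, the closest to AJ625457 over the 16 ratios was AJ625688, latent transforming growth factor beta binding protein 2 (r = 0.974), a matrix protein found on microfibrils. It stood at 1.58 in S3vsS2 and -0.57 in S4vsS3. A clone under AY484747, without a description (r = 0.973), and AJ623727, a TRF1-interacting ankyrin-related ADP-ribose polymerase (r = 0.963), followed. The closest to AJ626467 were another clone under AY484747 (r = 0.988), which shared its lower value in S2vsS1 with -1.25, and the undescribed AJ626105 (r = 0.983) and AJ625853 (r = 0.981). Those closest to foot protein-6 were AJ624584, cytochrome b of the mitochondrial respiratory chain (r = 0.964), AJ626386, an actin binding protein (r = 0.960), and AJ623779, transcription factor rel 1 (r = 0.959). Precollagen-D had no neighbour as close within that list. AJ624733, mantle gene 8 (r = 0.862), AJ625500, CUE domain containing 1 (r = 0.858), and the undescribed AJ625320 (r = 0.850) came first. All 3 had lower ratios than precollagen-D in S3vsS2 (-1.40, -1.46 and -2.16) and in S4vsS1 (-1.93, -2.30 and -3.72), and higher ones in S2vsS1 (0.72, 0.75 and 0.66).

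Of 3 relatives of the members none was called in S3vsS2. Precollagen-P (AJ623789), the proximal thread collagen, whose GO terms also include the ribosome, was at 0.19, 0.15, 0.10 and 0.25 in S3vsS2, where precollagen-D was below -0.6 on every array. In S4vsS1 it was at 0.096, -0.49, -0.44 and -0.13, with a mean of -0.24 ± 0.27 (SD, n = 4), and it was called in no comparison. With median centring alone the median of the 3 relatives turned from -0.39 to 0.21 in S2vsS1, from 0.17 to -0.0090 in S3vsS2 and from -0.24 to 0.92 in S4vsS1. The arrays of the 2 precollagens did not overlap in S3vsS2 or in S4vsS1. Precollagen-D was chosen by its changes on these arrays, and how often other pairs of probes part in this way was not counted. AJ516882, with a collagen triple helix domain and no description, was at 0.72, 0.79, 0.72 and 0.78 in S3vsS2, with a mean of 0.75 ± 0.037 (SD, n = 4). That evenness was like that of AJ626467, at a smaller size and without a call. Unlike the collagen members it stood above 0 in S4vsS3, at 0.60 ± 0.46 (SD, n = 4). Its routes round the loop differed by 1.28 (adjusted p = 0.0127 from limma). AJ624912, with the same domain, was at -0.00048 in S3vsS2 and was called higher in S4vsS1, at 0.55 ± 0.23 (SD, n = 4), a call that was lost with plain subtraction, scale normalization or median centring and without replicate 2, 3 or 4 of that comparison. In S3vsS2 1 of the 3 relatives was called higher with print-tip loess, the deposited ratios, spots kept separate, a dye term, array weights or the adjusted p alone, and without replicate 3 of S4vsS3 or replicate 1 or 4 of S4vsS1.

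Of 9 other genes of the matrix and of adhesion, 6 were called higher and none lower in S3vsS2, with a median of 1.58, and 6 were called lower and none higher in S2vsS1, with a median of -1.02. Among the 368 probes that the study lists, 106 were higher and 91 lower in S3vsS2, and 30 higher and 63 lower in S2vsS1. The highest of the 9 in S3vsS2 was the undescribed AJ516622 (2.38) and the lowest a matrilin-4-like protein (AJ624361), named after an adaptor protein of cartilage matrix, at -0.91 and not called. In S2vsS1 the lowest was cysteine rich protein 61 (AJ624499), a matrix-associated signalling protein, at -4.75. The routes differed by -6.82 for this gene (adjusted p = 6.08e-06 from limma), so its value depends on the route. They differed by 2.24 for AJ516622 (adjusted p = 0.000144 from limma), with the same limit. In S4vsS3 and S4vsS1, 1 of the 9 was called lower and 1 higher, with medians of -0.21 and -0.054. Median centring alone gave 5 higher and 1 lower in S3vsS2 (median 1.25) and 2 lower and 1 higher in S2vsS1 (median -0.48), and the medians of S4vsS3 and S4vsS1 turned to 0.14 and 0.58. The single call in S4vsS3 was lost without each of 12 of the 16 arrays.

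Collagens enter the secretory pathway before they leave the cell. Of 6 genes of entry into that pathway and of N-glycosylation, 2 were called higher and 1 lower in S3vsS2, with a median of 0.21. Among the 368 listed probes 106 were higher and 91 lower in that comparison. The highest of the 6 was defender against cell death 1 (AJ625979), a subunit of the enzyme that attaches sugar chains to new proteins, at 1.84 ± 0.22 (SD, n = 4). Its routes round the loop differed by 0.98 (adjusted p = 0.00165 from limma). The lowest was the sec63 homolog (AJ626414), which helps proteins through the membrane of the endoplasmic reticulum, at -0.63 ± 0.077 (SD, n = 4). Median centring alone left 1 higher and 1 lower, with a median of -0.26, and without replicate 2, 3 or 4 of S3vsS2, or with plain subtraction, only 1 was higher. The lower call was lost without replicate 2 or 3 of S3vsS2 and with scale normalization. In S2vsS1, 1 was higher and 1 lower, but without 12 of the 16 arrays, each left out alone, none was higher, and without 7 none was lower. In S4vsS3 1 was higher, and none without replicate 1, 2 or 3 of that comparison or with plain subtraction. In S4vsS1 none was called, against 4 higher with median centring. Listed probes called higher and lower numbered 30 and 63 in S2vsS1, 47 and 44 in S4vsS3, and 25 and 70 in S4vsS1.

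Markers of other tissue parts moved between the same stages. All 3 egg markers were called higher in S3vsS2, and the mean of the 3 lay between 1.41 and 1.85 over the arrays. All 3 markers of cilia and sperm tails were higher there too, with means of 0.82 to 1.13, though only 1 of the 3 with plain subtraction or median centring. The 5 muscle markers went both ways, with 2 called higher and 1 lower. The mean of the 5 lay between 0.58 and 0.94 over the arrays. The egg and cilia lists were thus on the side of both collagens and foot protein-6 at that step. These lists split in S4vsS3, where those members were at -0.63, -0.60 and -0.60. Of the egg markers 1 was called higher and none lower (median 0.24), a call lost with print-tip loess. Of the cilia markers 1 was called lower (median -0.46), a call lost with median centring alone or without replicate 1 or 2 of S4vsS3. In S2vsS1, 2 of the 3 egg markers were called lower (median -1.41). AJ626467 was called lower there too, at -0.65, while AJ625457 and foot protein-6 were at -0.066 and -0.15. The egg count was 1 with print-tip loess or without replicate 1, 3 or 4 of S2vsS1, and 0 without background correction or without replicate 2. In S4vsS1, 2 of the 3 egg markers (-1.63 and -2.06) and 2 of the 5 muscle markers (-2.23 and -0.54) were called lower. Egg marker AJ625914 stood at 0.094, and the uncalled muscle markers stood at -0.70 to 0.18. Of the 368 listed probes 70 were lower and 25 higher in S4vsS1, and both collagens and foot protein-6 were not called. Listed probes called higher and lower numbered 106 and 91 in S3vsS2, 30 and 63 in S2vsS1, and 47 and 44 in S4vsS3. Without replicate 1 or 4 of S4vsS1 or without background correction 1 egg marker and no muscle marker was lower, and with array weights none of either list. The muscle count was also 1 with median centring, scale normalization, the deposited ratios or the filter on dim probes, and when most of the other arrays were left out in turn. The loop mismatch of egg markers AJ625872 and AJ625914 passed the threshold, at 2.12 and 2.09 (adjusted p = 0.0133 and 0.00116 from limma). That of egg marker AJ623653 did not, at 1.94 (adjusted p = 0.0762 from limma). That of muscle marker AJ625475 passed, at 1.65 (adjusted p = 0.00518 from limma). The values of the markers that passed depend on the route.

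Of 9 genes listed as digestive gland markers, all 6 chitinases were called lower in S3vsS2, at -2.99 to -1.71. The trypsin-like enzyme (AJ624548) stood at 1.47, the glucanase (AJ623374) at 0.050 and the amylase (AJ624381) at -0.023. The paper reports lower chitinase mRNA as a change of the female mantle, also in Q-PCR of AJ625569. The chitinases thus need not stand for digestive gland here. In S4vsS1 the chitinases (-3.05 to -2.26) and the trypsin-like enzyme (-1.79) were called lower. These were the comparisons in which precollagen-D was lower. In S4vsS3, where precollagen-D stood at 0.012, the chitinases were at -0.42 to -0.092. In S2vsS1 they were at 0.82 to 1.11 and not called, and the amylase, trypsin-like enzyme and glucanase were called lower (-0.95, -1.47 and -0.53), where precollagen-D was at -0.048. With median centring alone 6 of the 9 were called higher and 2 lower in that comparison. No marker was at the level of the empty spots throughout: the fewest channels above it were 31 of 32 in the egg and cilia lists, 30 in the muscle list and 25 in the digestive gland list. The part of these tissues in the values of the members was not tested. No foot protein other than the members and precollagen-P could be named, so RNA from the foot could not be followed by further markers.

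**Figure D4:**
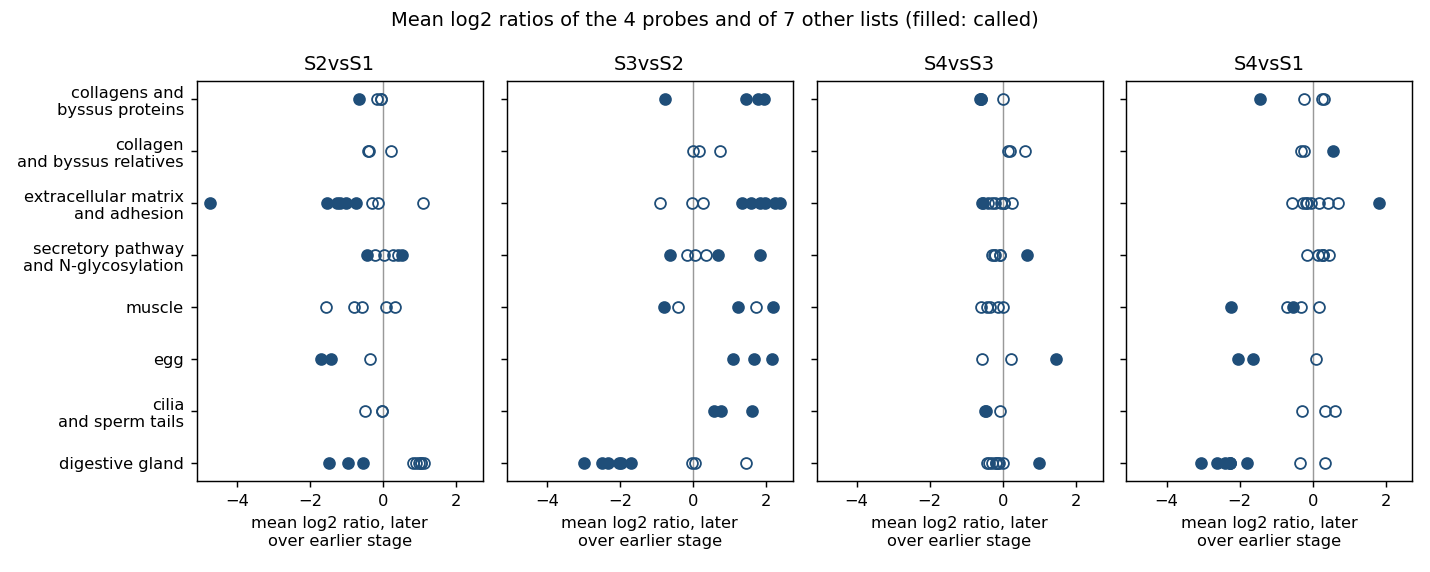
Mean log2 ratio of the later over the earlier stage (4 arrays each) for the 4 collagen and byssus probes and for 7 other lists in the 4 comparisons, 1 point per probe, filled where the probe was called. In S3vsS2 the egg and cilia lists lie above 0 with 3 of the 4 members, and the 6 chitinases of the digestive gland list are called lower, on the side of precollagen-D.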

How the data were processed

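Mantle RNA of female mussels at 4 stages was hybridised on 16 two-colour cDNA arrays with 3840 probe spots (1920 probes, 2 spots each), 608 empty and 112 alignment spots. The authors scanned the arrays, quantified the spots with GenePix and deposited intensity values (mean foreground and median background per dye, not normalized). The authors also deposited log2 ratios from limma, after loess and a background subtraction with an offset (the limma version was not given in the sources used here). The latter, averaged over spots, served to tie the listed identifiers to clones and as an alternative.

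Intensities were background-corrected by normexp (offset 50) and arrays were normalized by loess with control spots at weight 0 (R 4.3.3, limma 3.58.1). One fit held a coefficient for each of the 4 comparisons, and B took 0.01 as its prior share of changed probes. The comparisons shared a common estimate of the spread. The median SD between arrays over all probes was 0.327 in S4vsS1 and 0.173 to 0.211 in the other comparisons. The SEs of S4vsS1 may thus be too small. The loop mismatch is S2vsS1 plus S3vsS2 plus S4vsS3 less S4vsS1. The fit was tested on simulated data. The members and all lists were chosen with earlier results of these data known. Besides members and their relatives with a collagen domain, the genes named are the 3 probes whose 16 ratios correlate best with each member and the highest and lowest of a list. Other genes named with a value were chosen after their values were seen. Descriptions came from the study's annotation. Any 2 arrays of a comparison differed by more than the noise of duplicate spots (lowest ratio of variances 1.39). Replicate numbers were not taken as pairs. Sequences of the clones were not used here.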

Additional observations from a re-analysis of the deposited data

How the results depend on the processing

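The counts of called probes in S2vsS1, S3vsS2, S4vsS3 and S4vsS1 were 125, 284, 101 and 144. They moved by over 1.5 times as follows: 63 in S4vsS3 and 300 in S4vsS1 with median centring alone, 159 and 90 with scale normalization, 166 and 92 with array weights, 210 in S2vsS1 and 230 in S4vsS1 with the spots kept separate, and 308, 543, 174 and 463 in the 4 comparisons with the adjusted p alone. Leaving out 1 array gave 77 to 142, 227 to 313, 61 to 108 and 103 to 148, the lowest of S2vsS1 without its replicate 1 (77) or 2 (78) and of S4vsS3 without its replicate 1 (61) or 3 (62). Without replicate 4 of S3vsS2, whose labels conflict, no direction and no call of a member changed other than that of precollagen-D in S3vsS2, which was lost at -0.69. The loop mismatch passed in 260 probes, in 174 to 350 over the other settings and in 202 to 318 with 1 array left out. The dye offset passed in 22 probes, but in 0 without background correction, 3 with print-tip loess, 639 with median centring alone, 117 with the spots kept separate, 42 with array weights, and 2 to 43 with 1 array left out. With median centring alone the dye offsets of AJ625457 and AJ625760 reversed to 0.32 and 0.26. The share of higher among called probes, 28.8%, 56.7%, 56.4% and 37.5%, became 71.1%, 46.4%, 90.5% and 80.0% with that centring, and 18.9% in S4vsS1 with scale normalization. It was 49.2% in S2vsS1 without background correction, and 6.82% in S2vsS1 and 51.9% in S4vsS1 with plain subtraction. Same-numbered arrays of different comparisons deviated together with correlations of -0.21 to 0.19 over 24 pairs, 5 of them over 0.1, which does not pair the arrays. With the number as a random replicate block the counts were 123, 285, 101 and 144, the loop mismatch passed in 260 probes, and no call of a member changed. The cause of these differences was not tested. Precision is limited by 4 arrays per comparison and by signal near background. The latter held for precollagen-D on replicate 1 of S2vsS1 and for foot protein-6 at stage 1 on replicates 1 and 2 of S4vsS1. Signal was also near background for both collagens at stage 1 on replicate 1 of S4vsS1.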
